A study of Mus musculus with 2 samples.

Results

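The genes described are 5 keratins, Krt7, Krt8, Krt18, Krt19 and Krt6a, and the intermediate filament gene Vim. They were chosen by symbol among the 22802 genes listed in the blastocyst or the embryoid count table. All 6 have a row in the embryoid table, and 5 have one in the blastocyst table, where Krt6a is not listed. The study compared single cells of whole B6C3F1 mouse blastocysts at embryonic day 4.5 with cells of embryoids. The embryoids were aggregates of embryonic stem (ES) cells from Lifeact-RFPruby mice and XTE cells, which the series title describes as trophectoderm-like and whose source was an ES line, Gata6-H2B:Venus, before reprogramming. For each assembly 10000 ES cells and 50000 to 80000 XTE cells were combined, kept for 48 h in aggregation wells and for a further 48 h in repellent plates. XTE cells had been grown with CHIR99021, BMP4, Fgf4, Heparin and Activin, and ES cells with PD0325901, CHIR99021 and Lif. Both samples were dissociated with TrypLE, 6000 cells of each were loaded, and polyadenylated RNA was sequenced with the BD Rhapsody whole transcriptome kit. Each sample is 1 library, so no test between them can be made, and every interval given here is a 95% interval for counting error only.

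Keratins are the intermediate filaments of epithelia. Each filament is an obligate pair of an acidic type I chain (Krt18 or Krt19 here) and a basic type II chain (Krt8, Krt7 or Krt6a), and Krt8 with Krt18 is the pair of simple, single-layered epithelia. In the mouse embryo these filaments first assemble in the trophectoderm, the outer epithelium of the blastocyst that goes on to form the placenta, and they are widely used as its markers. Vimentin, the product of Vim, forms the filaments of mesenchymal cells, and of parietal endoderm cells alongside keratins.

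In the GRCm38 (mm10) mouse genome with GENCODE M21 genes, the type II genes lie together on chromosome 15 and Krt18 lies beside them, away from the other type I gene. Krt8 spans chr15:101996698-102004482 on the minus strand and Krt18 spans chr15:102028180-102032027 on the plus strand, so that the pair is transcribed divergently across a gap of 23697 bases. Krt7 (chr15:101411043-101430313, plus strand) and Krt6a (chr15:101689910-101694307, minus strand) belong to the same cluster. Krt19 is at chr11:100140810-100148665 on the minus strand and Vim at chr2:13573927-13582826 on the plus strand. Over the last 500 bases of each gene's longest coding transcript, no other annotated transcript had 95% identity or more to it over at least 200 bases. At 90% a single copy was found, the processed pseudogene Gm5200 of Krt18, which had 0 UMIs in both tables.

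The 250 bases upstream of the RefSeq start are shown for 4 of the 6 genes, because Krt8 and Krt18 are the pair whose levels moved together below, while Krt7 and Vim were each high in only some of the cell groups. Sequences are from the RefSeq promoter table (GRCm38.p6), 5′ to 3′ on the gene's strand, and some GENCODE M21 models begin further upstream, so the windows overlap them. Capitals mark matches on either strand to 7 short motifs. The TATA box was searched as TATAAA, and sites known for GATA factors as AGATAA. Letters for TEAD factors were GGAATG, and those for Sp1 were GGGCGG. The AP-2 family was searched as GCCNNNGGC. For ETS factors the letters were CCGGAA, and for AP-1 they were TGANTCA. The Sp1 and AP-2 matches of Krt7 overlap at 1 place. The windows are chr15:102004343-102004592 for Krt8, chr15:102027966-102028215 for Krt18, chr15:101412153-101412402 for Krt7 and chr2:13574061-13574310 for Vim.
Krt8: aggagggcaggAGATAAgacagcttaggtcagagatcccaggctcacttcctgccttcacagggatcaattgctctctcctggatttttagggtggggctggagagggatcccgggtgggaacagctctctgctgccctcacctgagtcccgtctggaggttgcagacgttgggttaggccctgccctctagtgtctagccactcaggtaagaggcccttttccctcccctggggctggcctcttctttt
Krt18: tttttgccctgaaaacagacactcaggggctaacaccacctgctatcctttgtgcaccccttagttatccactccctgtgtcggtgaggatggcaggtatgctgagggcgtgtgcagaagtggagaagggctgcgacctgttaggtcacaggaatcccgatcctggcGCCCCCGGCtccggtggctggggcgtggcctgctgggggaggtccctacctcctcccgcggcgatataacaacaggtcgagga
Krt7: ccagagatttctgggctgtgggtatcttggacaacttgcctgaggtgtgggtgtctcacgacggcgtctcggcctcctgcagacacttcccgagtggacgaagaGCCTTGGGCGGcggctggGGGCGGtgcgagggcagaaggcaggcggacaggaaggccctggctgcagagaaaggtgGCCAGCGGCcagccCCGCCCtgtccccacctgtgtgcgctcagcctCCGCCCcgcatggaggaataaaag
Vim: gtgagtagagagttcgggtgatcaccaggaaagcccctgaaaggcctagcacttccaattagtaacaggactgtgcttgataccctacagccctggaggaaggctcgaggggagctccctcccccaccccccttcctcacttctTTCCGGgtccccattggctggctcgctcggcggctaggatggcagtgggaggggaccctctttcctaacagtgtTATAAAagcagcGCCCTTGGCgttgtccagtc
The pair Krt8 and Krt18 shared none of these letters: Krt8 held 1 GATA match and Krt18 held 1 AP-2 match. Krt7 held 4 Sp1 and 2 AP-2 matches, and Vim held 1 TATA box, 1 ETS and 1 AP-2 match. Of all 32851 promoter windows of this length, 9.99% held the GATA letters, 13.7% the AP-2 letters, 32.7% the Sp1 letters, 12.4% the TATA box, 12.0% the ETS letters, 12.6% the TEAD letters and 6.75% the AP-1 letters. The G and C content was 58.0% for Krt8, 60.4% for Krt18, 66.0% for Krt7 and 58.4% for Vim, against a median of 52.4% over all windows. A match is a description of letters, and the data hold no measurement of binding.

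After filtering, 1080 blastocyst cells (median 9273 UMIs, 10.1% of them mitochondrial) and 5328 embryoid cells (median 4768.5 UMIs, 6.54% mitochondrial) were used, and 9 barcode sequences occurred in both libraries. A UMI (unique molecular identifier) stands for 1 captured RNA molecule, and levels are given as the counts of a gene scaled to the total UMIs of a summed group of cells (CPM, per 1000000). Cells were clustered without the keratins and Vim and named from other marker genes. The blastocyst library gave 376 trophectoderm-like (TE-like) cells in clusters 1, 4 and 6, 446 primitive endoderm-like (PrE-like) cells and 258 epiblast-like (EPI-like) cells. Of the embryoid cells 3716 were PrE-like (clusters 0, 2, 3, 4, 6 and 7), 108 were EPI-like (cluster 9) and 441 were fibroblast- or extraembryonic mesoderm-like (FIB-like, clusters 5 and 8), and 1063 stayed unnamed (clusters 1 and 10). No embryoid cluster took the TE-like name, and names compare markers only between clusters of the same library. The trophectoderm regulator Cdx2 was at 294 CPM in TE-like cells and at no more than 31.6 CPM in any embryoid cluster. Not every listed TE marker followed Cdx2. Hand1 was at 276 CPM in embryoid cluster 8 and at no more than 8.38 CPM in any blastocyst cluster. Eomes was at 174 CPM in embryoid cluster 5, against 467 CPM in TE-like cells.

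Trophectoderm was the keratin-rich lineage of the blastocyst, and it was almost free of Vim. Krt18, the type I chain of simple epithelia, stood at 2161 CPM (2114 to 2210.0; 7752 UMIs) in TE-like cells, at 7.78 CPM (32 UMIs) in PrE-like cells and at 3.79 CPM (10 UMIs) in EPI-like cells. Its partner Krt8 stood at 262 CPM (246 to 279), 3.65 CPM and 0.758 CPM in the same order. Both genes were high in each of the 3 TE-like clusters: Krt18 at 2207, 2236 and 1809.6 CPM in clusters 1, 4 and 6, and Krt8 at 279, 245 and 212 CPM. The intervals of cluster 6 lay below those of cluster 1 for both genes, and those of clusters 1 and 4 overlapped.

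Krt7, a type II keratin of simple and ductal epithelia, was at 54.9 CPM (47.5 to 63.2; 197 UMIs) in TE-like cells, with 1 UMI in all PrE-like cells and 0 in EPI-like cells. Krt19, a type I keratin that lacks the usual tail domain, was at 70.5 CPM (62.1 to 79.8) in TE-like cells, 1.95 CPM in PrE-like and 2.65 CPM in EPI-like cells. Vim went the other way, with 2 UMIs in 376 TE-like cells (0.558 CPM), 163 UMIs in PrE-like cells (39.6 CPM, 33.8 to 46.2) and 75 in EPI-like cells (28.4 CPM, 22.4 to 35.6). The plot of levels by cluster shows this division of the blastocyst clusters into a keratin-bearing and a Vim-bearing set.

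**Figure D1:**
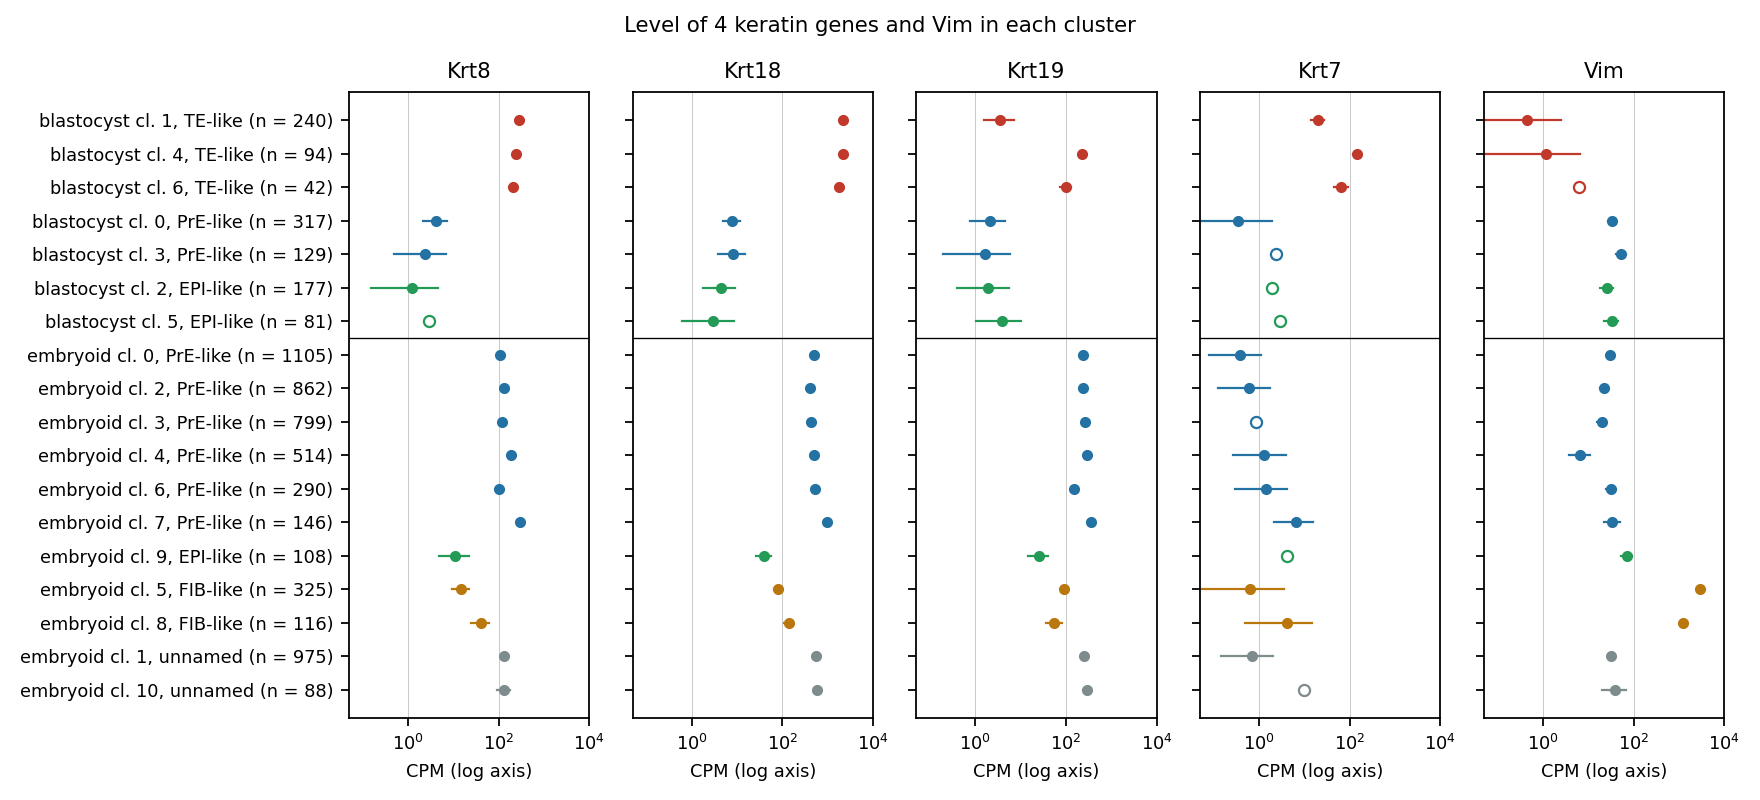
Level of Krt18, Krt8, Krt19, Krt7 and Vim (CPM, log axis) in each of the 18 clusters of the 2 libraries; points are summed profiles, bars exact 95% Poisson intervals, and open circles clusters with 0 UMIs drawn at the floor of 3 UMIs; a few intervals run past the left edge. Krt18 and Krt8 are high in the 3 TE-like clusters and in every embryoid PrE-like cluster, while Vim peaks in embryoid clusters 5 and 8 at 2978 and 1246 CPM.

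As log2 ratios with 1 CPM added to each level, TE-like over PrE-like cells of the blastocyst, Krt18 was at 7.94 (7.62 to 8.67), Krt8 at 5.82 (5.44 to 7.01), Krt7 at 5.49 (5.32 to 13.1) and Krt19 at 4.60 (4.18 to 6.41). Vim was at -4.71 (-9.21 to -4.28). Each interval is that of the ratio of counts without the added CPM, so a gene near 0 can lie outside its own. Of the 5 genes with at least 20 CPM in either group, 4 exceeded 2-fold upward and 1 downward, against 11.6% higher and 20.6% lower of all 7143 genes at that level. The median log2 ratio of broadly detected genes was -0.28, and scaling by it (median of ratios) raises each of these values by that amount. Krt7 against EPI-like cells, which had 0 UMIs, was at least 48.3-fold higher over a floor of 3 UMIs per summed profile.

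In single cells the depth decides how often a gene is seen, so each cell was also thinned to 2000 UMIs. Krt18 was seen in 95.1% (92.3 to 97.0) of 364 thinned TE-like cells and in 375 of 376 cells without thinning. Krt8 was seen in 34.3% after thinning and 78.5% before, Krt7 in 8.52% and 28.5%, and Krt19 in 7.69% and 14.9%. Thinned EPI-like cells of the blastocyst, the class least likely to hold these filaments, had Krt18 in 1.61%, at a median depth of 9864 UMIs against 8606 in TE-like cells. PrE-like cells, whose later derivatives can form keratin filaments, had it in 1.46%, at a median of 9398 UMIs. These shares rest on 6 thinned PrE-like and 4 thinned EPI-like cells, too few to compare the classes. Without thinning, Krt18 was seen in 6.28% of PrE-like and 3.88% of EPI-like cells, with intervals that overlapped. The interval of the ratio of levels, PrE-like over EPI-like, included equal levels for Krt18. For Krt8, with 15 and 2 UMIs, it lay above equal levels. Vim was seen in 0 of 364 thinned TE-like cells, which allows a share of up to 0.824%, and in 6.10% of PrE-like and 6.05% of EPI-like cells.

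Within the trophectoderm Krt19 and Krt7 differed between clusters by more than Krt18 and Krt8 did. Krt19 was at 3.56 CPM (1.54 to 7.01; 8 UMIs) in the 240 cells of cluster 1, at 229.8 CPM (199 to 264; 198 UMIs) in the 94 cells of cluster 4 and at 98.4 CPM (72.3 to 131; 47 UMIs) in the 42 cells of cluster 6. Krt7 was at 19.6 CPM (14.2 to 26.3), 142 CPM (118 to 169) and 64.9 CPM (44.1 to 92.2). The order of the 3 clusters was the same for both genes, and none of the intervals overlapped. Krt19 and Krt7 were among the leading genes of cluster 4, although neither was used to form it. Clusters 4 and 6 differ from cluster 1 in trophoblast regulators as well, since Cdx2 was at 350 CPM in cluster 1, 272 in cluster 4 and 73.3 in cluster 6, and Elf5 at 162, 194 and 597 CPM. The Elf5 intervals of clusters 1 and 4 overlapped. Eomes was at 288, 934 and 467 CPM, in the cluster order of Krt19 and Krt7, and Gata3 at 667, 970 and 348 CPM.

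From cluster 1 to cluster 4 the log2 ratio was 5.66 (5.01 to 7.24) for Krt19 and 2.79 (2.35 to 3.39) for Krt7, with 0.02 (-0.06 to 0.10) for Krt18 and -0.19 (-0.42 to 0.04) for Krt8. Of the 4 members at 20 CPM or more, 2 were at least 2-fold higher and 0 lower, beside 5.49% higher and 8.28% lower of 6271 genes. Krt19 in the trophectoderm was carried by few cells: 56 of 376 cells held its 253 UMIs, 7 cells held 50% of them, and a single cell held 61 UMIs, or 24.1%. Without that cell the level of TE-like cells was 53.9 CPM and that of cluster 4 was 163 CPM. Krt18, in contrast, needed 95 cells to reach 50% of its UMIs, and Krt7 needed 28.

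The mitochondrial share of UMIs also varied among these clusters, with medians of 12.3%, 11.6% and 8.05% in clusters 1, 4 and 6. Among cells with at most 10%, Krt19 was at 1.85 CPM in 58 cells of cluster 1, 440.1 CPM in 27 cells of cluster 4 and 91.5 CPM in 31 cells of cluster 6. Among cells above 10% it was at 4.10, 115 and 126 CPM, so cluster 1 was the lowest in both strata. The size of the gap does depend on the cells and clusters used: when cells were filtered at 10% and clustered anew, the lowest TE-like cluster had Krt19 at 79.2 CPM, and at Leiden resolution 0.5 at 21.9 CPM.

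Krt19 and Krt7 were found together in TE-like cells. Without thinning, Krt19 was seen in 36.4% (27.4 to 46.3) of the 107 cells with Krt7 and in 6.32% (3.72 to 9.93) of the others, and within cluster 4 in 50.0% (35.8 to 64.2) of 52 cells against 14.3% (5.43 to 28.5). After thinning, TE-like cells with Krt7 held Krt19 in 32.3% (16.7 to 51.4) of 31 cells, against 5.41% (3.23 to 8.41) of 333 cells without. Within cluster 4 the thinned shares were 45.0% (23.1 to 68.5) of 20 cells and 15.3% (7.88 to 25.7) of 72. Thinning is a random draw, and 2 further draws gave 28.6% and 21.9% for TE-like cells with Krt7, and 38.1% and 27.8% within cluster 4. The intervals within cluster 4 overlapped in every thinned draw and not without thinning, where deeper cells weigh more.

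The PrE-like cells of the embryoids carried the keratin pair that blastocyst PrE-like cells nearly lacked. Krt18 was at 490.4 CPM (481 to 499.8; 10482 UMIs), Krt8 at 129 CPM (124 to 134) and Krt19 at 240.5 CPM (234 to 247; 5141 UMIs) in the 3716 cells. Krt7 was nearly absent, at 0.795 CPM (0.463 to 1.27; 17 UMIs), and Vim was at 24.6 CPM (22.5 to 26.8). All 6 clusters shared the pattern: Krt18 ranged from 408 CPM in cluster 2 to 968 CPM in cluster 7, Krt8 from 102 CPM in cluster 6 to 292 CPM in cluster 7, and Krt19 from 147 CPM in cluster 6 to 364 CPM in cluster 7.

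Cluster 7, led by the visceral endoderm genes Rbp4 and Apob, was the highest of the 6 for all 3 keratins, with log2 ratios over cluster 2 of 1.24 for Krt18, 1.16 for Krt8 and 0.63 for Krt19. Its Krt7 stood at 6.59 CPM from 5 UMIs. Cluster 4, led by Ctgf, F3 and Lamb3, had the lowest Vim of the 6, at 6.55 CPM (3.66 to 10.8), below the interval of each of the other 5. Unnamed cluster 1, led by Thbs1, Tspan8 and Fgfr2, held the keratins at nearly the level of the PrE-like clusters, with log2 ratios over them of 0.16 for Krt18, 0.02 for Krt8 and 0.02 for Krt19. Its best class was PrE, with 11 PrE markers high, as in clusters 2 and 3. The 975 cells stayed unnamed because the listed TE marker Tspan8, at 59.3 CPM, was among the leading genes of cluster 1.

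Against blastocyst PrE-like cells, the embryoid PrE-like cells had log2 ratios of 5.81 (5.48 to 6.53) for Krt18, 4.81 (4.42 to 5.99) for Krt8 and 6.36 (5.97 to 8.16) for Krt19. Vim was at -0.67 (-0.94 to -0.43), short of 2-fold. Of 4 members at 20 CPM or more, 3 were at least 2-fold higher and 0 lower, beside 16.4% higher and 11.8% lower of 7565 genes. A difference between the 2 libraries cannot be told apart from one between embryoid and blastocyst.

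Against TE-like cells the same profile was mixed. Krt18 was at -2.14 (-2.18 to -2.10), Krt8 at -1.01 (-1.13 to -0.91) and Krt7 at -4.96 (-6.92 to -5.39), while Krt19 was at 1.76 (1.59 to 1.96) and Vim at 4.04 (3.60 to 8.51). Of these 5 genes, 2 were at least 2-fold higher and 3 lower, beside 29.3% higher and 13% lower of 7558 genes. The median of broadly detected genes was 0.21 here, and scaling by it lowers each value by that amount. Krt8 crossed the 2-fold line narrowly and its interval included it. The Krt19 value moves with the TE-like cells that are kept: a mitochondrial limit of 10% left 116 TE-like cells among 530 blastocyst cells, and the ratio was then 0.78, short of 2-fold.

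**Figure D2:**
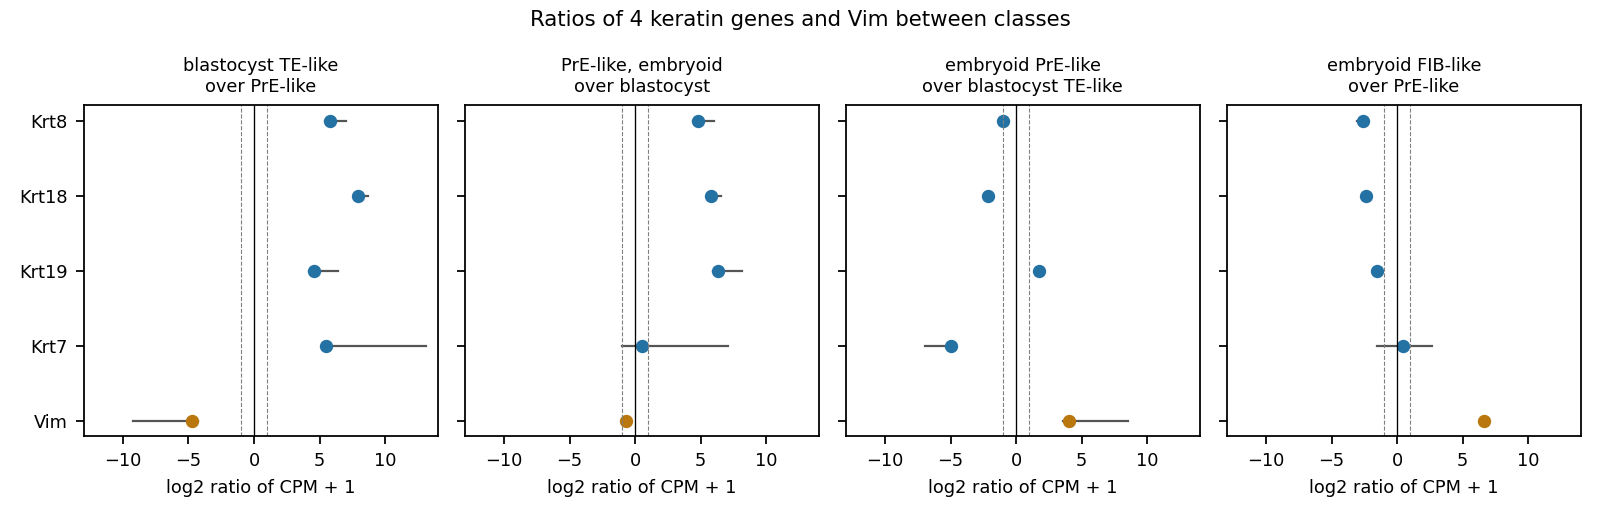
Log2 ratios (1 CPM added) of Krt18, Krt8, Krt19, Krt7 and Vim between classes, with exact 95% intervals of the ratio of counts as bars and dashed lines at 2-fold. Krt18, Krt8 and Krt19 of embryoid PrE-like cells lie at 5.81, 4.81 and 6.36 over blastocyst PrE-like cells and at -2.14, -1.01 and 1.76 over TE-like cells.

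The make-up of the keratins differed between trophectoderm and embryoid cells. In TE-like cells Krt18 made up 84.8% of the 9142 UMIs of the 5 keratins, Krt8 10.3%, Krt19 2.77% and Krt7 2.15%. In embryoid PrE-like cells Krt18 made up 56.9% of 18417 UMIs, Krt19 27.9% and Krt8 15.0%. Krt19 took 0.142% of keratin UMIs in TE-like cluster 1, 8.06% in cluster 4 and 4.51% in cluster 6, and between 18.8% (cluster 6) and 32.8% (cluster 3) in the embryoid PrE-like clusters. No TE-like cluster reached the Krt19 share of any PrE-like embryoid cluster.

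**Figure D3:**
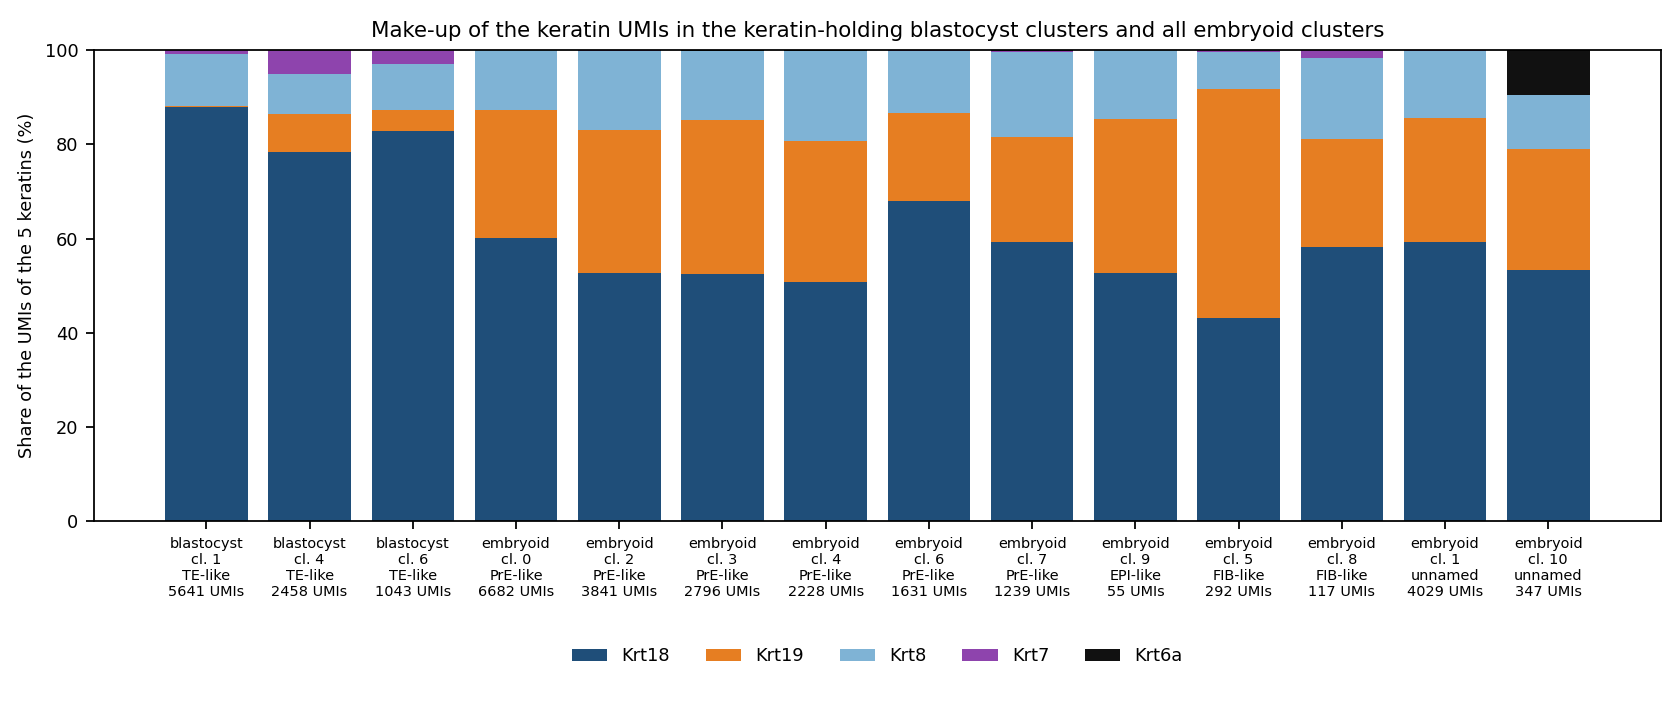
Share of each gene (percent, stacked bars) in the UMIs of the 5 keratins in the 3 TE-like clusters and the 11 embryoid clusters, with the number of UMIs under each bar. Krt19 takes 0.142% to 8.06% in the TE-like clusters and 18.8% to 32.8% in the embryoid PrE-like clusters, and Krt6a appears only in embryoid cluster 10, at 9.51%, among shares large enough to see.

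Ratios between genes are ratios of UMIs, and how efficiently each transcript was captured was not tested. There were 8.25 UMIs of Krt18 (7.71 to 8.83) for each UMI of Krt8 in TE-like cells and 3.79 (3.64 to 3.96) in embryoid PrE-like cells, with a range over the latter's clusters from 2.65 (cluster 4) to 5.20 (cluster 6). With all chains counted, type I over type II UMIs came to 7.04 (6.62 to 7.50) in TE-like and 5.59 in embryoid PrE-like cells. The gap between the groups was thus smaller for the sum of each type than for the pair Krt18 and Krt8. The 5 keratins together stood at 2549 CPM in TE-like and 862 CPM in embryoid PrE-like cells.

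After thinning, Krt18 was seen in 57.0% (55.4 to 58.7) of 3545 embryoid PrE-like cells, Krt19 in 34.8% (33.2 to 36.4) and Krt8 in 21.6% (20.3 to 23.0). Without thinning the shares were 82.0%, 57.9% and 45.3%, at a median of 5092 UMIs. In the EPI-like cells of the same library the shares were 6.73% for Krt18 and 2.88% each for Krt19 and Krt8, at a median of 6345 UMIs. Krt19 was spread over many cells here, with 2151 of 3716 cells holding at least 1 UMI and 516 cells holding 50% of the total. Of thinned cells 45.2% had 1 of the 3 keratins Krt8, Krt18 and Krt19, 26.2% had 2, 5.28% had all 3 and 23.3% had none.

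Krt18 was seen more often in embryoid PrE-like cells with Krt8 than in those without, by a margin that varied with the draw of the thinning. The shares were 60.4% (56.9 to 63.9) with Krt8 and 56.1% (54.2 to 58.0) without, and the intervals overlapped. In 2 further draws they were 64.5% (61.0 to 67.9) with and 55.6% (53.7 to 57.5) without, and 65.5% (62.0 to 68.9) with and 56.3% (54.4 to 58.2) without, where they did not overlap. Without thinning they were 88.5% and 76.6%, and with detection set at 2 UMIs 32.2% and 23.8%. Krt19 was seen in 36.5% (34.4 to 38.6) of cells with Krt18 and 32.6% (30.2 to 35.0) of cells without. Vim was seen in 3.26% of cells with Krt18 and 3.94% of cells without. Krt18 was seen in 55.6% (43.4 to 67.3) of 72 thinned PrE-like cells with a UMI of the trophectoderm regulator Cdx2 and in 57.1% (55.4 to 58.7) of 3473 without. Cdx2 was at only 8.61 CPM in PrE-like cells, so cells without a UMI may still have held it. Whether Cdx2 marks keratin-bearing cells therefore cannot be decided here.

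EPI-like cells of the embryoids had low keratin levels and more Vim than PrE-like cells. Krt18 was at 40.3 CPM (27.0 to 57.8; 29 UMIs), Krt19 at 25.0 CPM (14.8 to 39.5; 18 UMIs) and Krt8 at 11.1 CPM (4.80 to 21.9; 8 UMIs), which is 8.21%, 10.4% and 8.59% of the level in embryoid PrE-like cells. Vim, at 72.2 CPM (53.9 to 94.7), exceeded its 28.4 CPM of blastocyst EPI-like cells, a log2 ratio of 1.32 (0.81 to 1.88). The intervals of these 3 proportions overlapped.

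The EPI-like cells in which a keratin was seen also held more primitive endoderm transcripts. After thinning, 10 of 104 cells had Krt8, Krt18 or Krt19; the summed PrE markers were at 6860 CPM in them and at 709 CPM in the other 94, and the summed EPI markers at 2715 and 5053 CPM. Their median depth was 9237.5 against 6280 UMIs. No doublet was called in the embryoid library, and the part of cells with mixed RNA in this result was not tested.

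The FIB-like clusters reversed the balance of the filaments. Vim was at 2978 CPM (2894 to 3065; 4674 UMIs) in the 325 cells of cluster 5 and at 1246 CPM (1149 to 1348; 610 UMIs) in the 116 cells of cluster 8. Krt18 was at 80.3 CPM (66.9 to 95.6) and 139 CPM (108 to 176), Krt8 at 14.7 CPM (9.29 to 22.0) and 40.8 CPM (24.9 to 63.1), and Krt19 at 90.5 CPM (76.2 to 107) and 55.1 CPM (36.3 to 80.2). With all cells counted, cluster 5 thus had more Vim and less Krt8 and Krt18 than cluster 8, with intervals that did not overlap. In cluster 8 the richest cell held 13 of the 68 Krt18 UMIs, and for Krt8 the richest cell held 3 of 20. Without the richest cell of each cluster, Krt18 was at 75.8 CPM in cluster 5 and 115 CPM in cluster 8. Krt8 was then at 12.8 and 35.0 CPM. Whether the intervals stay apart without these cells was not tested. Krt19 made up 48.6% of keratin UMIs in cluster 5 and 23.1% in cluster 8. A single cell held 33 of the 142 Krt19 UMIs of cluster 5 and another 11 of the 27 of cluster 8, and without them the levels were 70.4 and 33.6 CPM.

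Over the FIB-like cells together, Vim had a log2 ratio of 6.65 (6.57 to 6.84) over embryoid PrE-like cells, with Krt18 at -2.37, Krt8 at -2.57 and Krt19 at -1.54. Of 4 members at 20 CPM or more, 1 was at least 2-fold higher and 3 lower, beside 11.5% higher and 8.71% lower of 7819 genes. Vim was seen in 93.6% of thinned cells of cluster 5 and in 80.0% of cluster 8, against 3.55% of embryoid PrE-like cells. Fibrillar collagens, the matrix proteins that define fibroblasts, did not divide cluster 5 into cells with and without Vim. The 126 cells with a collagen UMI had Vim at 3440.0 CPM (3296 to 3589) and the 199 without at 2677 CPM (2574 to 2783).

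Cells with both a keratin and Vim were few in every group outside the FIB-like clusters. In thinned TE-like cells 96.4% had a keratin (Krt8, Krt18 or Krt19) without Vim and 0 had both. In embryoid PrE-like cells 74.1% had a keratin alone, 2.57% had both, 0.987% had Vim alone and 22.3% had neither. In cluster 5 the order turned, with 80.2% Vim alone, 13.4% both and 2.01% keratin alone, and in cluster 8 the shares were 64.8%, 15.2% and 3.81%. Blastocyst PrE-like and EPI-like cells had 0 cells with both, and 91.5% of the PrE-like cells had neither. Only 10 of 410 PrE-like and 5 of 248 EPI-like cells had a keratin alone, and 25 and 15 had Vim alone, so the 0 carries little weight. A share with both depends on how often each transcript is seen. Whether keratins and Vim avoid each other in single cells was not tested.

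**Figure D4:**
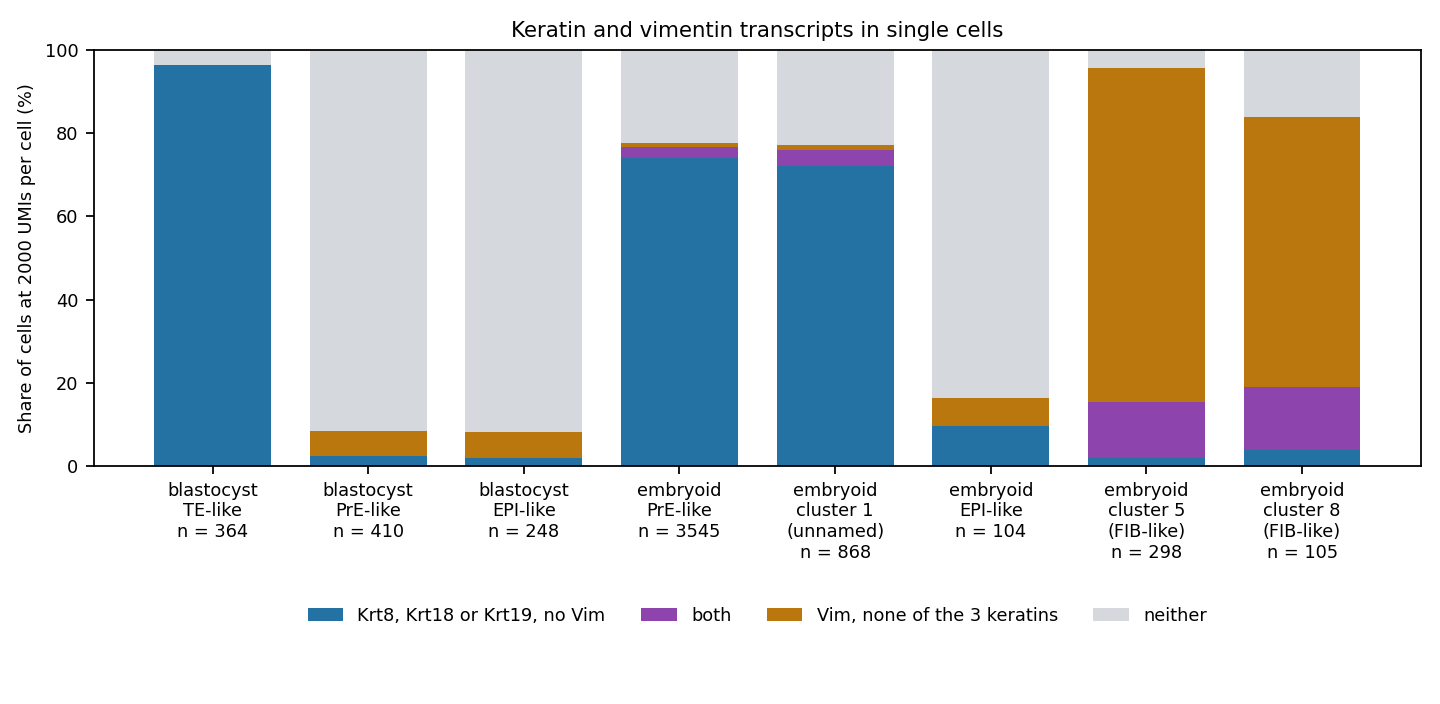
Share of cells (percent, thinned to 2000 UMIs each) with a UMI of Krt8, Krt18 or Krt19 only, of both a keratin and Vim, of Vim only and of neither, by cell group. Keratin-only cells make up 96.4% of TE-like and 74.1% of embryoid PrE-like cells, and Vim-only cells 80.2% of cluster 5 and 64.8% of cluster 8.

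Keratin-bearing cells of the FIB-like clusters also held more endoderm and epithelial transcripts. In cluster 5 the 46 thinned cells with a keratin had summed PrE markers at 5665 CPM against 2903 CPM in the other 252, Epcam, an epithelial adhesion molecule, at 264 against 55.3 CPM, and Vim at 2609.9 against 3064 CPM. In cluster 8 the PrE markers were at 7257 CPM in 20 cells and 2390 CPM in 85. Summed FIB markers were lower in the keratin-bearing cells of cluster 5, at 929 against 1404 CPM. Their median depth was 5768 against 4388.5 UMIs, and the part of mixed RNA in these cells was not tested.

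Krt6a, a keratin of stratified and wounded epithelia, was confined to a few embryoid cells. Cluster 10, an unnamed group of 88 cells led by Lgals3, Anpep and Cldn4, held 33 UMIs of it (107 CPM, 73.5 to 150.0) in 5 cells, 18 of them in 1 cell. Cluster 3 held 7 UMIs in 2 cells, and every other embryoid cluster held 0 to 2. Cluster 10 had Krt8, Krt18 and Krt19 within the range of the PrE-like clusters, at 129, 599 (515 to 691) and 288 CPM, and 0 UMIs of Krt7. Its median depth was 2934.5 UMIs and its median mitochondrial share was 0.207%.

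The other 23 keratin genes in the tables stayed low. Krt10 was the highest, at 17.1 CPM in embryoid cluster 7, and Krt13, a keratin of stratified epithelia, had 35 UMIs, all in the blastocyst library. None reached 20 CPM in any class or cluster.

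Genes of epithelial junctions and membranes followed the keratins in part. Of 16 listed epithelial genes, 10 were at least 2-fold higher and 0 lower in TE-like than in blastocyst PrE-like cells (median log2 ratio 2.06, against -0.37 over all genes), and of 14 measured, 11 were higher and 0 lower in embryoid than in blastocyst PrE-like cells (1.59 against 0.03). Over all genes, 11.6% were higher and 20.6% lower in the first comparison, and 16.4% and 11.8% in the second. Epcam was at 1784 CPM in TE-like, 229.5 CPM in blastocyst PrE-like and 596 CPM in embryoid PrE-like cells. The tight junction gene Cldn6 was at 67.5, 133 and 1199.6 CPM, highest in the embryoid PrE-like cells. In FIB-like over embryoid PrE-like cells 13 of 14 epithelial genes were lower and 0 higher (median -2.49 against 0.02), beside 8.71% lower and 11.5% higher of all genes.

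Among filament linkers and desmosome genes, which anchor keratins to cell contacts, 5 of 10 were higher and 1 lower in TE-like than in blastocyst PrE-like cells, and 4 of 8 higher and 1 lower in embryoid than in blastocyst PrE-like cells. The shares over all genes were 11.6% higher and 20.6% lower in the first comparison and 16.4% and 11.8% in the second. The desmosomal cadherin Dsg2 was at 166 CPM in TE-like, 231 in blastocyst PrE-like and 157 CPM in embryoid PrE-like cells, which does not follow the keratins. Of the other intermediate filament genes, 0 of 5 were higher and 2 lower in each of these comparisons, counts too small to set against 20.6% and 11.8% lower over all genes. Nefl, a neurofilament gene, was at 2.79 CPM in TE-like cells, 504 CPM in blastocyst PrE-like and 175 CPM in embryoid PrE-like cells.

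Mesenchymal genes were high beside Vim in the FIB-like cells. In FIB-like over embryoid PrE-like cells 13 of 15 were at least 2-fold higher and 1 lower, with a median log2 ratio of 4.60, against 11.5% higher, 8.71% lower and a median of 0.02 over all genes. Of this list, Twist1 also served as a naming marker of the FIB-like class and Sparc as one of the PrE-like class. The directions of these genes were therefore partly set by the naming. Cdh11, a mesenchymal cadherin, was at 871 CPM in FIB-like and 0.561 CPM in embryoid PrE-like cells. In TE-like over blastocyst PrE-like cells 4 of 7 were higher and 3 lower, against 11.6% and 20.6% of all genes. Lgals1, a galectin of this list, was at 3287 CPM in TE-like cells that had almost no Vim.

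Genes that respond to enzymatic dissociation differed between the libraries. All 9 measured of this list were at least 2-fold higher in embryoid than in blastocyst PrE-like cells (median log2 ratio 2.49), against 16.4% of all genes and a median of 0.03. Jun, an AP-1 subunit, stood at 1572 CPM in the former and 19.5 CPM in the latter, and Fos at 1204 and 22.4 CPM. In embryoid FIB-like over PrE-like cells 0 of 9 were higher or lower, against 11.5% higher and 8.71% lower of all genes. Their part in the keratin levels of the embryoid library was not tested. Of the listed epithelial transcription factors, 10 of 12 were at least 2-fold lower and 1 higher in embryoid PrE-like than in TE-like cells, against 13% lower and 29.3% higher of all genes, with Gata3, a trophectoderm regulator, at 0.561 against 698 CPM and Elf3 at 116 against 852 CPM. Several of them served as naming markers of the TE-like class.

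Across the 18 clusters, the gene whose level was most like that of Krt8 was Krt18 (Pearson r = 0.98 of log2 levels, over 7015 genes), followed by Cldn7 (0.96), Tmprss2 (0.95), Dsc2 (0.94) and Ocln (0.94). For Krt19 the nearest genes were Abhd4 and Slc2a1 (0.94 each), then Rac1, Kif1c and Rhoc, and its r with Krt8 was 0.78. Genes like Krt7 included Gsta1 (0.92), Entpd1, Actb and Tnfrsf9, and its r with Krt19 was 0.19. Vim was nearest to Kat6a (0.92), Fstl1, Twist1, Phip and Lphn1, and its r with Krt18 was -0.44. Krt18 was nearest to Krt8, Cldn7 (0.96), Myl6, Gskip and Sri, and Krt6a, which rests on 1 cluster, to Sppl3 (0.91), Gm12248, Tff1, Sprr1a and Mxd1. Clusters of a library share its preparation and depth, so these values describe the clusters and carry no test.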

How the data were processed

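Single-cell RNA was measured in 1 embryoid and 1 blastocyst library. The deposited tables hold raw UMI counts of 1 or more per gene and cell barcode. Per the submitters' processing notes, tools were STAR 2.7.1a, featureCounts 1.6.4 of Subread, bcl2fastq 2.19.1.403 and UMI-tools 1.0.1, with build mm10. The annotation, settings and rule for barcodes were not given in the sources used here. In all, the blastocyst library has 11047555 UMIs in 1288 barcodes and the embryoid library has 28923930 UMIs in 5546. Fewer UMIs give wider intervals, and only counting error is covered.

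Barcodes with at least 1000 UMIs, 500 genes and at most 25% mitochondrial UMIs were kept. Scrublet (scanpy 1.11.5) removed 17 of 1097 blastocyst barcodes and called 0 of 5328 in the embryoid library, so any mixed cells there were not removed. Each library was clustered on 2000 variable genes without ribosomal, mitochondrial, keratin and Vim genes, with 30 principal components, 20 neighbours and Leiden (leidenalg 0.10.2, igraph 0.11.9) at resolution 1.0, seed 1. Names came from 96 markers of 10 classes, 90 of them matched, and need at least 3 markers at 20 CPM or more. Each such marker also had to reach a set fraction of its highest level among the clusters of its library. A cluster whose leading 10 genes held more markers of another class stayed unnamed. So did a cluster with a very low mitochondrial share, or a shallow one without leading markers of its class. Cluster 10, with PrE as best class and 9 PrE markers high, stayed unnamed for its mitochondrial share.

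UMIs were summed per class or cluster. Levels have exact Poisson, ratios exact conditional binomial and shares Clopper-Pearson intervals at 95%, and a gene was called at 2-fold and 20 CPM in either group. Shares were also taken after thinning to 2000 UMIs, leaving out shallower cells (12 TE-like, 171 embryoid PrE-like). The text covers every member in every class, at most 4 genes per list with the highest levels, and the 5 genes most like each member over clusters of at least 40 cells, among genes at 50 CPM or more; 1 of these is not reported here. The members and lists were chosen with earlier results of these data known. The scripts were tested on simulated data; alternatives cover filters, doublets, clustering, scaling, added CPM and thinning. Software was BLAST+ 2.17.0, matplotlib 3.10.9, scikit-learn 1.9.0, pandas 2.3.3, scipy 1.17.1, numpy 2.4.6 and Python 3.11.15.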

Additional observations from a re-analysis of the deposited data

Results flagged for a closer look

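The ratio of PrE-like to EPI-like cells stood apart between the libraries for 2 of the genes, since the sign was opposite in embryoid and blastocyst. For Krt19 the log2 ratio of PrE-like over EPI-like cells was 3.22 (2.60 to 4.02) in the embryoids and -0.31 (-2.11 to 1.25, an interval that includes 0) in the blastocyst, a difference of 3.53. The levels behind it were 240.5 and 25.0 CPM in the embryoids and 1.95 and 2.65 CPM in the blastocyst. For Vim the ratio was -1.52 (-1.97 to -1.11) in the embryoids and 0.47 (0.08 to 0.89) in the blastocyst, a difference of -1.98, from 24.6 and 72.2 CPM in the embryoids and 39.6 and 28.4 CPM in the blastocyst. With 1 library of each kind neither difference was tested.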

How the results depend on the processing

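Of 407 alternative values over 46 results, 313 counted as the same and 94 as moved. A value had moved when it left the interval of the main result, or for gene counts when it changed by a set factor. A reversed direction was looked for only in the 157 alternative log2 ratios of values past 2-fold. None of these reversed, and 154 stayed past 2-fold. TE-like over blastocyst PrE-like cells, adding 10 CPM in place of 1 gave 6.93 for Krt18, 4.32 for Krt8, 2.75 for Krt19 and -2.23 for Vim, and keeping doublets gave 7.52 for Krt18 and -4.25 for Vim. For embryoid over blastocyst PrE-like cells, 10 CPM gave 4.81 for Krt18, 3.35 for Krt8 and 4.39 for Krt19, keeping doublets gave 5.39 for Krt18, and a 10% mitochondrial limit gave -0.96 for Vim. Against TE-like cells, that limit gave -2.22 for Krt18, -1.15 for Krt8 and 0.78 for Krt19, resolution 2.0 gave -2.20 for Krt18 and 1.32 for Krt19, and median-of-ratios scaling gave -2.35, -1.23 and 1.54. For Vim in FIB-like over PrE-like cells, 10 CPM gave 6.22, and counting unnamed cluster 1 as PrE-like, an alternative chosen after seeing the data, gave 6.57. The lowest Krt19 level of a TE-like cluster was 79.2 CPM under the 10% limit and 21.9 CPM at resolution 0.5; the highest was 305 CPM at resolution 0.5 and 163 CPM without the richest cell. The limit of 10% also removes most TE-like cells, and the cause of the move was not tested. Thinning to 1000, 4000 or no fixed number of UMIs gave 36.6%, 80.0% and 82.0% for Krt18 and 19.8%, 52.0% and 57.9% for Krt19 in embryoid PrE-like cells. Krt18 was then seen in 44.0%, 82.4% and 88.5% of those with Krt8 and in 35.6%, 78.5% and 76.6% without; with detection at 2 UMIs, 32.2% and 23.8%, and with other draws, chosen after seeing the data, 64.5% and 65.5% of cells with Krt8. Krt19 in TE-like cells with Krt7 was at 16.7% with 1000 UMIs; without Krt7 it was at 3.12%, at 9.38% under the 10% limit and at 2.77% with 2 UMIs. At 4-fold 6 epithelial genes, not 11, were higher in embryoid than in blastocyst PrE-like cells. No paired analysis was possible because each group is 1 library. Depth limits Krt7, Krt6a and blastocyst PrE-like keratins, which rest on few UMIs.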

Other observations

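Of the nuclear lamins, the intermediate filaments that line the nucleus, Lmna followed the order of Krt18 and Krt8 in the blastocyst, and Lmnb1 did not. Lmna, which encodes the lamins A and C of more differentiated cells, stood at 199, 114 and 28.0 CPM in TE-like, PrE-like and EPI-like cells of the blastocyst. Embryoid PrE-like, EPI-like and FIB-like cells had it at 60.3, 9.72 and 91.3 CPM, so that the EPI-like cells were lowest in both libraries. Lmnb1, a B-type lamin, was highest in EPI-like cells of each library, at 505 CPM in the blastocyst and 393 CPM in the embryoids.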
